A study of Mus musculus with 4 samples.

Results

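The immediate early response genes are those whose transcription starts within minutes of a stimulus, without new protein synthesis. Growth factors, mechanical strain, wounding and cell dissociation act through MAP kinases on factors already bound to DNA, such as serum response factor with its ternary complex partners and CREB, and the transcripts are then degraded quickly. In lung and other solid tissues the same genes are known to respond to the handling of the tissue between death and lysis, so the value on each array is given here. The genes were Egr1, Fos, Fosb, Jun, Junb, Atf3, Ier2, Dusp1, Nr4a1 and Zfp36. Every probe set that the platform annotation assigns to exactly 1 of these symbols was taken, which gave 11 probe sets for all 10 genes, of 34945 probe sets with a single symbol for 18193 genes. Jun had 2 probe sets and each of the other 9 genes had 1.

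RNA was measured in mouse lung 4 months after an adenovirus carrying Cre recombinase had been instilled into the trachea, with 1 single-colour Affymetrix array per lung sample. Cre excises DNA between loxP sites. Of the 4 arrays, 2 came from IKKa floxed mice and 2 from wild type mice. Strain B6/J and the virus were common to the groups, so Cre was delivered to the wild type lungs too. IKKα is a catalytic subunit of the complex that phosphorylates IκB proteins and so acts on NF-κB. The gene that encodes it was not analysed here, so the excision was not checked. The labels used here give no age and no promoter for Cre, and do not tell if the arrays come from different mice. The p-values therefore cover the spread among these arrays, part of which may be technical.

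Several features of the arrays moved with genotype. Sex-linked transcripts separated the groups, with Xist at 4246 and 4629 in floxed lungs against 31.8 and 22.9 in wild type lungs. The Y-linked Eif2s3y stood at 3.77 and 6.14 in floxed lungs against 519 and 530 in wild type lungs, and Uty and Kdm5d went the same way. By these transcripts the floxed lungs were female and the wild type lungs male, so sex and genotype cannot be told apart here. The ratio of 3′ to 5′ control probes, which reflects how intact the RNA was, stood for Gapdh at 1.44 and 1.68 in floxed lungs against 1.18 and 1.10 in wild type lungs. For actin the ratios were 2.67 and 2.77 in floxed lungs and 2.65 and 2.46 in wild type lungs. The summed intensity of 8 cardiac muscle markers was 477 to 618 in floxed lungs and 4761 to 7003 in wild type lungs, and 7 of the 8 fell. That of 5 smooth muscle markers was 2263 to 2590 against 3731 to 4250, with 2 fallen, and that of 3 adipocyte markers 48.0 to 67.8 against 694 to 972, with all 3 fallen. The sum over 7 T cell markers was 507 to 701 in floxed lungs against 257 to 269 in wild type lungs, with 3 of the 5 tested having risen, and that of 7 monocyte and macrophage markers was 5637 to 6174 against 3633 to 3710, with 5 risen. Plasma cell markers summed to 20100 to 21999 against 5687 to 5776, with 3 of 5 risen. Endothelial markers summed to 8132 to 8979 against 7544 to 8450, and none of 6 passed the test. Of 5 fibroblast markers 1 fell (sums of 4677 to 4881 in floxed lungs and 6588 to 6799 in wild type lungs). It was Dcn, with means of 1156 in floxed lungs and 3088 in wild type lungs. Lum was lower without passing, and Col1a1, Col1a2 and Pdgfra overlapped between groups. Of 6 airway epithelial markers 2 fell (sums of 34607 to 42194 against 36417 to 38352). None of the tested neutrophil, mesothelial or red cell markers passed, with sums that overlapped between groups, and no marker was listed at 0. The label of lung was borne out by alveolar markers, which summed to 46518 to 50943 in floxed lungs and 40757 to 41838 in wild type lungs. In floxed lungs the means of Adipoq (16.6), Retn (15.3), Sln (12.4), Nppa (13.9), Myh6 (20.3) and Muc5b (13.1) lay under the intensity filter of 21.0. In wild type lungs that of Cd5 (19.6) did. These markers were tested only through the group where they are high, so their place in the counts of fallen or risen markers is no support. In whole lung, fewer cells of a type and less RNA per cell cannot be told apart. The part of these features, sex among them, in the results below was not tested.

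Promoter sequence is shown for Fos, Dusp1 and Zfp36, which with Egr1 were the members whose difference had an unadjusted p under 0.05. The 250 bases before the annotated start of each gene are printed, from the RefSeq promoter table of build GRCm38.p6. They lie at chr12:85473640-85473889 on the plus strand, chr17:26508473-26508722 on the minus strand and chr7:28379229-28379478 on the minus strand. Capitals mark matches to a searched motif.
Fos: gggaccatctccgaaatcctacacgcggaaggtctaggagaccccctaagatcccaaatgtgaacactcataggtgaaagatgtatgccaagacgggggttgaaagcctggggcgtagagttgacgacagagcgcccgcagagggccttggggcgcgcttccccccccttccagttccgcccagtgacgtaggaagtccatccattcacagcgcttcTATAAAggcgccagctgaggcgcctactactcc
Dusp1: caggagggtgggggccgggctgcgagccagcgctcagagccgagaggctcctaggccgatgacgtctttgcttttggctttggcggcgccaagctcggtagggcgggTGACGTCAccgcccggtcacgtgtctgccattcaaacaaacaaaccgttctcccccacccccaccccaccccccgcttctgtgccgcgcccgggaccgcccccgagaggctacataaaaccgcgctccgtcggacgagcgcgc
Zfp36: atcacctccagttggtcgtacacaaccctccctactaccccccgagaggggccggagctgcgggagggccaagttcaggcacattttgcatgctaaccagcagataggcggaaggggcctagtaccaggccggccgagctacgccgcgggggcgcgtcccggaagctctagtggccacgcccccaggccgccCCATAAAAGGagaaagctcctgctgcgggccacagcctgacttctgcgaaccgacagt

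The table held promoters of 8 of the 10 genes and none for Egr1 or Ier2. Each was a window of 300 bases with 50 of them after the start. The searched motifs were the CArG box, which serum response factor binds, the cyclic AMP response element TGACGTCA, the AP-1 sites TGAGTCA and TGACTCA, and TATAAA, each on both strands. A CArG box stood in 1 of the 8 windows, that of Zfp36, 58 to 49 bases before the start, as CCATAAAAGG, and in 1.63% of 32851 promoter windows. The letters TGACGTCA stood in that of Dusp1, 143 to 136 bases before the start, against 1.79% of all windows. TATAAA stood in 2 of the 8, those of Fos, 33 to 28 bases before the start, and Junb, 1 to 6 bases after it, against 13.6% of all windows. An AP-1 site stood in 0 of the 8 windows and in 5.2% of all windows. TATAAA and the CArG box did not overlap in any of the 3 printed sequences. These are matches of letters in a short window, and sequence further upstream was outside it.

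Of the 10 genes, Egr1 alone rose in floxed lungs by the test across all genes, and it did so 1.70-fold. Fos, Zfp36 and Dusp1 were 1.54-, 1.42- and 1.38-fold higher without passing, and Jun, Junb and Atf3 stood within 1.07-fold. The groups were compared with limma on log2(intensity + 16), with Benjamini-Hochberg adjustment over 12735 genes and a threshold of 0.05. Fosb fell under the filter on low intensity, so 9 of the 10 genes were tested. The count of 1 risen and 0 fallen stands beside 1.77% of all genes tested that passed in either direction and 1.01% that passed as higher.

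**Figure D1:**
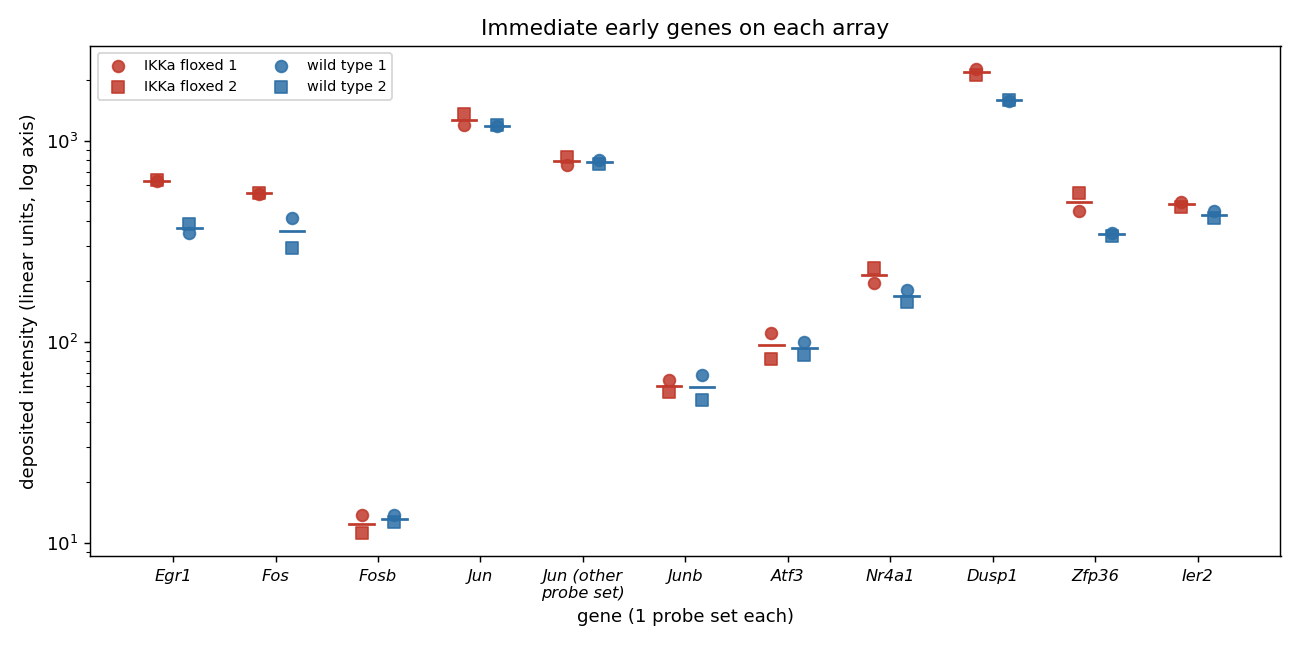
Deposited intensity of the 11 probe sets of the immediate early genes on each array, on a log axis. Red points are IKKa floxed lungs and blue points wild type lungs, circles are replicate 1 and squares replicate 2, and a bar marks the mean of a group. The groups stand apart for Egr1, Fos, Dusp1, Zfp36, Nr4a1 and Ier2, and they overlap for Jun, Junb, Atf3 and Fosb.

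Egr1 encodes a zinc finger transcription factor induced through serum response factor. Its intensity was 629 and 636 in floxed lungs, against 347 and 385 in wild type lungs. The floxed arrays nearly coincided, and the lowest of them stood 0.68 above the highest wild type array on the log2 scale. The means were 632 ± 4.74 in floxed lungs and 366 ± 26.8 in wild type lungs (SD, n = 2 each). The log2 fold change was 0.76 ± 0.12 SE (95% interval 0.47 to 1.05, limma adjusted p = 0.0367). It ranked 184 among 12735 genes by log2 fold change, from the highest. The call was lost whichever array was left out: the adjusted p was 0.0709 without floxed replicate 1, 0.0683 without floxed replicate 2, 0.162 without wild type replicate 1 and 0.0951 without wild type replicate 2.

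Fos and Fosb encode partners of Jun proteins in the AP-1 transcription factor. Fos had intensities of 545 and 550 in floxed lungs, against 414 and 294 in wild type lungs. The floxed arrays lay together and the wild type arrays differed from each other by 0.47 on the log2 scale, which was the widest gap within a group among the 9 genes tested. The log2 fold change of Fos was 0.63 ± 0.17 SE (95% interval 0.21 to 1.04, limma adjusted p = 0.165). Without wild type replicate 1 it was 0.86 (adjusted p = 0.0666), and without wild type replicate 2 it was 0.39 (adjusted p = 0.589). Fosb was dim on every array, at 13.7 and 11.2 in floxed lungs and 13.7 and 12.7 in wild type lungs. Those groups overlapped, and in a fit of all probe sets with no filter the log2 fold change of Fosb was -0.04 (95% interval -0.37 to 0.29, limma adjusted p = 0.947).

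Jun and Junb encode the basic leucine zipper proteins that pair with Fos or with each other. The brighter probe set of Jun had intensities of 1194 and 1351 in floxed lungs and 1181 and 1196 in wild type lungs. The lower floxed array lay between the wild type arrays. The log2 fold change of Jun was 0.09 ± 0.13 SE (95% interval -0.20 to 0.39, limma adjusted p = 0.788). Its other probe set stood at 755 and 833 in floxed lungs against 801 and 765 in wild type lungs, a log2 fold change of 0.02 (95% interval -0.32 to 0.36). Junb had intensities of 64.5 and 56.1 in floxed lungs and 68.1 and 51.3 in wild type lungs. Here the wild type arrays enclosed the floxed ones. Junb had a log2 fold change of 0.02 ± 0.15 SE (95% interval -0.34 to 0.38, limma adjusted p = 0.976). The upper limits of these intervals leave room for a rise of up to 1.31-fold in Jun and 1.30-fold in Junb.

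Atf3 encodes a transcription factor of the ATF/CREB family that is induced by cell stress. It had intensities of 111 and 81.7 in floxed lungs and 100 and 86.1 in wild type lungs. The floxed arrays lay outside the wild type arrays on either side. Atf3 had a log2 fold change of 0.03 ± 0.16 SE (95% interval -0.36 to 0.42, limma adjusted p = 0.956). Nr4a1, an orphan nuclear receptor, had intensities of 196 and 233 in floxed lungs, against 181 and 158 in wild type lungs. The groups did not overlap, with a gap of 0.11 on the log2 scale that was smaller than the differences within the groups. Its log2 fold change was 0.31 ± 0.14 SE (95% interval -0.02 to 0.65, limma adjusted p = 0.383).

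Dusp1 and Zfp36 encode proteins that end the response. DUSP1 is a phosphatase that inactivates MAP kinases, and the product of Zfp36, tristetraprolin, binds AU-rich elements of cytokine mRNAs and promotes their decay. Dusp1 had intensities of 2269 and 2111 in floxed lungs, against 1575 and 1596 in wild type lungs. Replicates lay close together in each group, with a gap of 0.40 between groups on the log2 scale. Dusp1 had a log2 fold change of 0.46 ± 0.12 SE (95% interval 0.18 to 0.74, limma adjusted p = 0.143). Zfp36 had intensities of 446 and 546 in floxed lungs, against 348 and 337 in wild type lungs. The groups stood 0.35 apart on the log2 scale, and the floxed arrays differed by 0.28. The log2 fold change of Zfp36 was 0.51 ± 0.14 SE (95% interval 0.18 to 0.84, limma adjusted p = 0.162), and it was 0.65 without floxed replicate 1 and 0.37 without floxed replicate 2. Their promoters are those printed above with TGACGTCA and a CArG box in capitals.

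Ier2, a nuclear protein of the early response, had intensities of 495 and 469 in floxed lungs, against 447 and 411 in wild type lungs. The floxed arrays were the higher ones, with a gap of 0.07 on the log2 scale that was no larger than the differences within the groups. Its log2 fold change was 0.16 ± 0.12 SE (95% interval -0.13 to 0.45, limma adjusted p = 0.608).

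**Figure D2:**
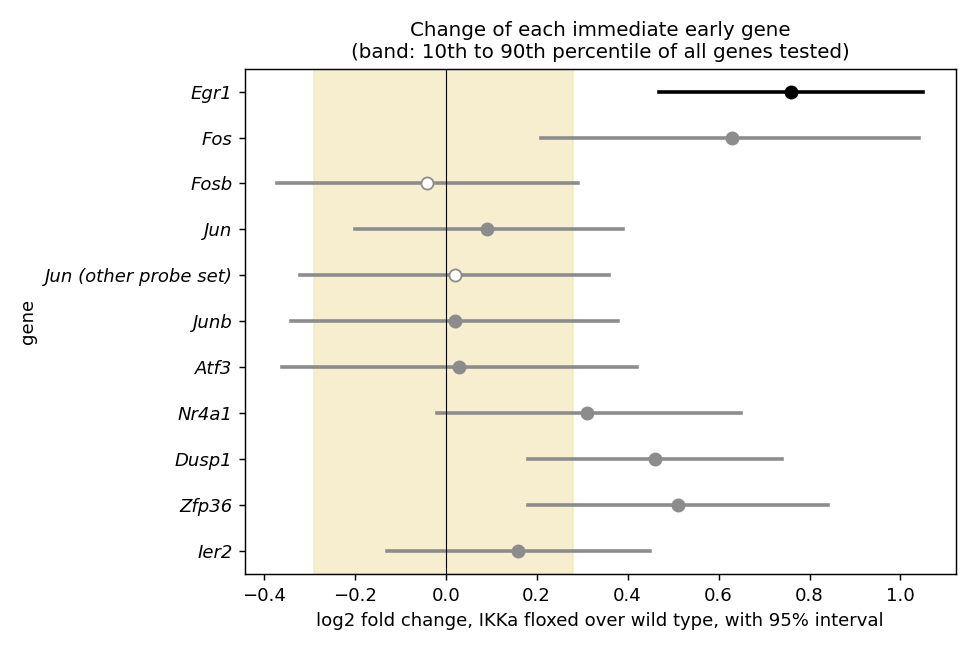
Log2 fold change of each immediate early gene, IKKa floxed over wild type, with its 95% interval from limma. Black marks the gene that passed the threshold, grey those that did not, and open points the probe sets read from the fit of all probe sets with no filter. The shaded band spans -0.29 to 0.28, the 10th to 90th percentile of all genes tested, and Egr1, Fos, Zfp36, Dusp1 and Nr4a1 lie to the right of it.

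The 9 tested genes all had log2 fold changes above 0, where 50.0% of all genes tested did. Their median was 0.31, with a range of 0.02 to 0.76, while the median of all genes was 4.73e-05. At an unadjusted p under 0.05 there were 4 of the 9, all higher, beside 14.3% of all genes at that level, 7.12% higher and 7.14% lower. In 6 of the 9, each floxed array lay above each wild type array, which held for 23.6% of all genes, and in 0 of the 9 did each lie below, which held for 22.2%. Groups without overlap in either direction made up 45.8% of all genes. The groups overlapped in the remaining 3, Jun, Junb and Atf3. Genes induced together are not independent of each other, and an exact permutation test of 2 arrays against 2 cannot give a two-sided p below 0.333, so these counts carry no test.

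The arrays were also set side by side on the centred scale, where each gene's mean over the 4 arrays is 0. The mean over the 9 genes was 0.17 on floxed replicate 1 and 0.17 on floxed replicate 2, against -0.10 on wild type replicate 1 and -0.23 on wild type replicate 2. The mean lay above 0 on each floxed array and below 0 on each wild type array, while the genes did not keep 1 order within groups. In the floxed lungs 4 of the 9 were higher on replicate 1 and 5 on replicate 2. Zfp36 and Nr4a1 were higher on replicate 2 by 0.28 and 0.23, while Atf3 was higher on replicate 1 by 0.38. In the wild type lungs 6 were higher on replicate 1, led by Fos (0.47) and Junb (0.32), and 3 on replicate 2.

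**Figure D3:**
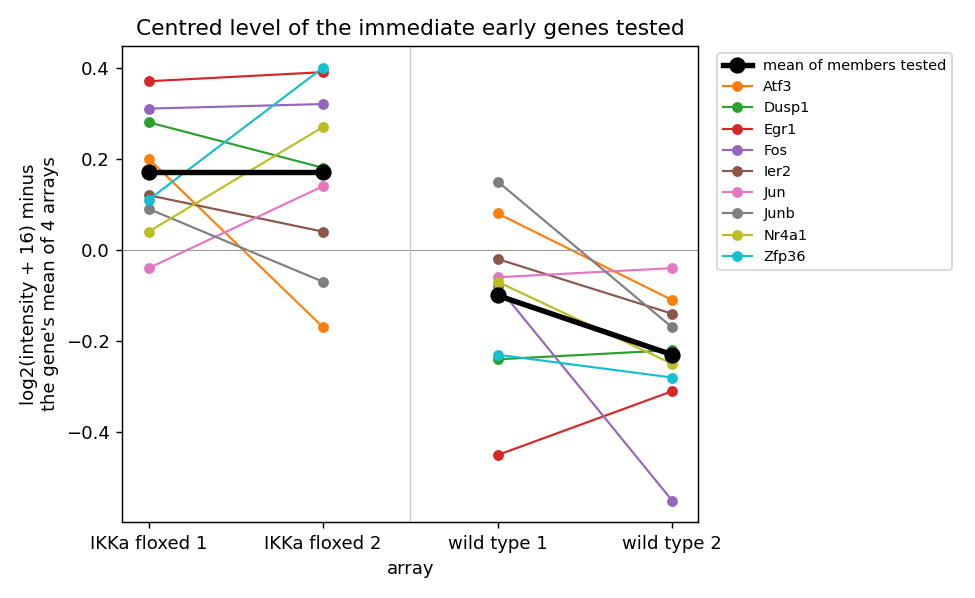
Level of each of the 9 tested genes on each array, as log2(intensity + 16) minus the mean of that gene over the 4 arrays. Lines join the arrays of a group, and the thick black line is the mean over the 9 genes, at 0.17 and 0.17 on the floxed arrays and -0.10 and -0.23 on the wild type arrays. Egr1, Fos, Dusp1, Zfp36, Nr4a1 and Ier2 are above 0 on each floxed array and below 0 on each wild type array. The lines of Atf3 and Junb cross 0 within each group.

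The wider class was read in the same fit. Among 22 tested transcription factors of the immediate early response outside the 10, none rose or fell by limma after adjustment. Before adjustment (p under 0.05) 4 were higher and 0 lower, beside 7.12% and 7.14% of all genes. In 6 of the 22 each floxed array lay above each wild type array, beside 23.6% of all genes. In 3 each lay below, beside 22.2%. The median log2 fold change was 0.14. The 3 of highest mean intensity, Jund, Klf4 and Klf6, pointed in different directions without passing. Jund, the AP-1 subunit that is present in resting cells, had intensities of 2185 and 2279 in floxed lungs, against 1922 and 1520 in wild type lungs (log2 fold change 0.38 ± 0.15 SE, limma adjusted p = 0.315). Klf4, a Krüppel-like factor, had 2239 and 2431 in floxed lungs, against 2776 and 2834 in wild type lungs (-0.26 ± 0.12 SE, limma adjusted p = 0.390). Klf6 had 1475 and 1551 in floxed lungs against 1462 and 1221 in wild type lungs. Within families, Egr2 stood at 0.50 and Egr3 at -0.24, and Nr4a2 and Nr4a3, the relatives of Nr4a1, at -0.38 and -0.41, with adjusted p of 0.182, 0.531, 0.356 and 0.471 by limma. These 4 were chosen after their values were seen.

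Among 28 other tested feedback and effector genes, 1 rose and none fell, beside 1.01% and 0.762% of all genes (median log2 fold change 0.11). At an unadjusted p under 0.05, 5 were higher and 1 lower, beside 7.12% and 7.14% of all genes. In 11 of the 28 each floxed array lay above each wild type array, beside 23.6% of all genes. In 3 each lay below, beside 22.2%. The gene that rose was Pim1, a serine/threonine kinase that cytokines induce through STAT proteins and NF-κB, with 320 and 303 in floxed lungs, against 158 and 151 in wild type lungs. With all its probe sets averaged, the log2 fold change of Pim1 was 0.64 (limma adjusted p = 0.0379). In its brightest probe set, read here, the arrays lay close together within each group. There the log2 fold change was 0.94 ± 0.12 SE (limma adjusted p = 0.0154). That p was 0.0679 when wild type replicate 2 was left out and 0.0714 with no filter on low genes. Ccn1, a matrix protein that serum response factor and YAP induce, was the next in size. It had 684 and 846 in floxed lungs, against 477 and 419 in wild type lungs (0.75 ± 0.15 SE, limma adjusted p = 0.0727), and was chosen after its values were seen. Nfkbia, which encodes the NF-κB inhibitor IκBα, had 6616 and 6330 in floxed lungs and 5231 and 5783 in wild type lungs (0.23 ± 0.12 SE, limma adjusted p = 0.461). Mcl1, an anti-apoptotic protein, stood at 0.16 and Ccn2, a relative of Ccn1, at 0.37, with adjusted p of 0.602 and 0.251 by limma.

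Upstream of these genes, none of 23 tested kinases and transcription factors of the ERK, p38, JNK, serum response factor and CREB routes passed by limma, 0 had an unadjusted p under 0.05, and the median log2 fold change was 0.00, with a range of -0.20 to 0.29. Another 5 listed genes are not analysed here. Elk4, a ternary complex factor, had 1112 and 1248 in floxed lungs and 1067 and 1234 in wild type lungs. Creb1 had 961 and 882 in floxed lungs and 869 and 917 in wild type lungs. Prkaca, the catalytic subunit of protein kinase A, had 872 and 1057 in floxed lungs and 949 and 971 in wild type lungs. The groups overlapped for each of these 3 genes. Transcript levels say nothing of the phosphorylation through which these proteins act.

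Lists that are known to move with handling, ischaemia and stress hormones were read beside the immediate early genes. Of 12 heat shock genes, none passed by limma, and the median was 0.04. In 5 of the 12 each floxed array lay above each wild type array, beside 23.6% of all genes. In 1 each lay below, beside 22.2%. At an unadjusted p under 0.05, 1 gene was higher and 0 lower, beside 7.12% and 7.14% of all genes. Hspa8, the constitutive HSP70 chaperone, was that gene, with 14191 and 12273 in floxed lungs, against 10099 and 9821 in wild type lungs (0.41 ± 0.13 SE, limma adjusted p = 0.223). The inducible Hspa1a and Hspa1b stood at -0.09 and -0.03, with overlapping groups, and were chosen after their values were seen. Hsp90aa1 and Dnaja1 each stood at 0.01. Of 15 hypoxia genes, none passed by limma, and the median was -0.06. At an unadjusted p under 0.05, 0 were higher and 1 lower. In 5 of the 15 each floxed array lay above each wild type array, and in 3 each lay below. Vegfa had 1056 and 1318 in floxed lungs and 1235 and 1409 in wild type lungs, and Ldha and Pgk1, of glycolysis, stood at 0.03 and 0.18.

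Of 13 glucocorticoid response genes, 1 rose and none fell, beside 1.01% and 0.762% of all genes, and the median was 0.19. Before adjustment (p under 0.05) 5 were higher and 1 lower, beside 7.12% and 7.14% of all genes. The one that rose was Cdkn1a, an inhibitor of cyclin-dependent kinases that p53 also induces. It had 700 and 524 in floxed lungs, against 218 and 218 in wild type lungs (1.41 ± 0.16 SE, limma adjusted p = 0.0102). That p was 0.0589 with no filter on low genes. With all its probe sets averaged, the log2 fold change of Cdkn1a was 1.12. Tsc22d3, also called GILZ, had 4037 and 4741 in floxed lungs, against 3642 and 3307 in wild type lungs (0.33 ± 0.14 SE, limma adjusted p = 0.341). Errfi1, a feedback inhibitor of the EGF receptor, had 3098 and 3460 in floxed lungs, against 2494 and 2458 in wild type lungs (0.40 ± 0.12 SE, limma adjusted p = 0.208). Klf9 stood at 0.13. In 8 of the 13 each floxed array lay above each wild type array, beside 23.6% of all genes, and in 1 each lay below, beside 22.2%.

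Downstream, mRNAs with AU-rich elements that tristetraprolin is known to bind were read beside Zfp36. Of 11 tested, 2 rose and none fell, beside 1.01% and 0.762% of all genes, with a median of 0.37. They were the chemokines Cxcl10, at 277 and 222 in floxed lungs against 21.6 and 29.7 in wild type lungs (2.67 ± 0.16 SE, limma adjusted p = 0.00121), and Ccl3, at 51.2 and 38.8 against 3.57 and 2.81 (1.66 ± 0.14 SE, limma adjusted p = 0.00378). Ccl3 passed the filter on low intensity through its floxed arrays alone, so its place in the count is no support for the list, and its log2 fold change ran from 0.70 with a pseudocount of 64 to 3.45 with a pseudocount of 1. Ccl2, chosen after its values were seen, also passed the filter through its floxed arrays alone. It had 31.1 and 45.7 in floxed lungs against 13.7 and 15.4 in wild type lungs. At an unadjusted p under 0.05, 5 of the 11 were higher and 0 lower, beside 7.12% and 7.14% of all genes. The median and this unadjusted count include Ccl3, Ccl2 and the member Fos, so they are no support for the list either. Cxcl10 is also a gene of the interferon response. Ier3 stood at 0.11 and Vegfa at -0.16, and Fos, itself such an mRNA, is given above. Among 9 tested AP-1 target genes, 1 rose and none fell, beside the same shares of all genes, with a median of -0.02. Before adjustment (p under 0.05) 1 was higher and 1 lower, beside 7.12% and 7.14% of all genes. Mmp13, a collagenase, was the one that rose, with 50.0 and 38.3 in floxed lungs against 16.6 and 8.48 in wild type lungs (1.08 ± 0.18 SE, limma adjusted p = 0.0424), and its call was lost without floxed replicate 1 (adjusted p = 0.0952) or wild type replicate 2 (0.109), with a pseudocount of 1 (0.118), with no intensity filter (0.153) and with every probe set fitted (0.0615). Mmp13 too passed the filter through its floxed arrays alone, and its log2 fold change was 0.50 with a pseudocount of 64 and 1.79 with a pseudocount of 1. Mmp3, another matrix metalloproteinase, stood at -0.92 (adjusted p = 0.106) and was chosen after its value was seen. Ccnd1, Cd44 and Gclc stood at 0.09, 0.24 and -0.23.

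**Figure D4:**
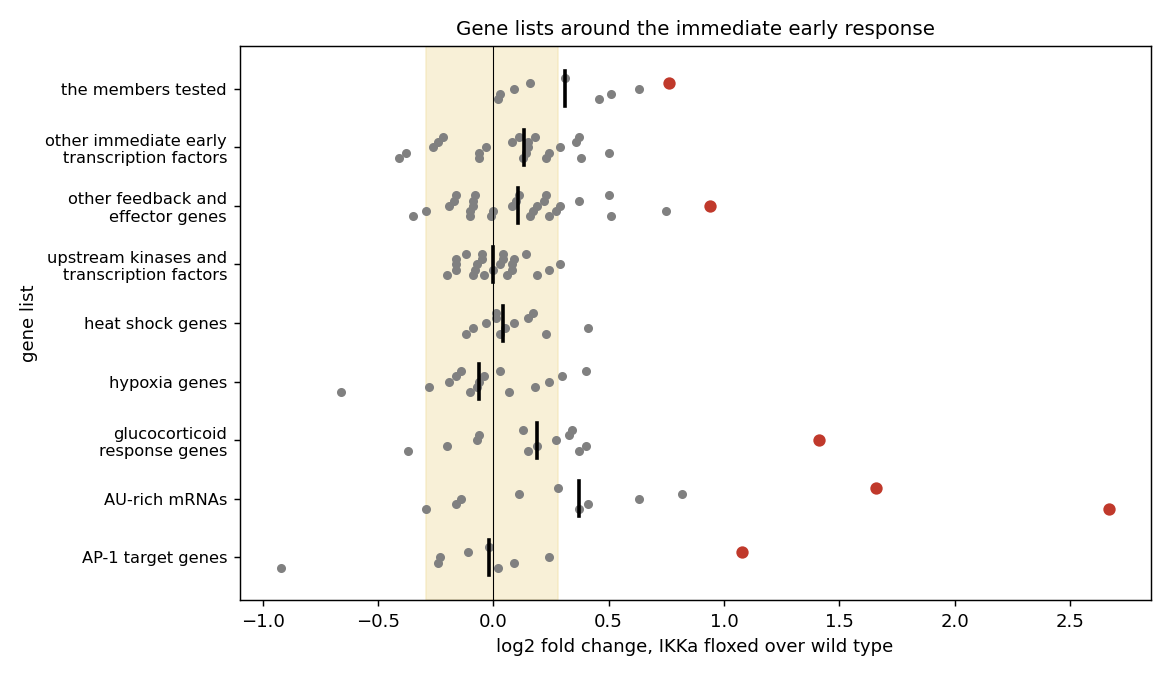
Log2 fold change, IKKa floxed over wild type, of each tested gene in the lists around the immediate early response, with the tested members on top. Red points passed the threshold, grey points did not, black bars are medians, and the shaded band is the 10th to 90th percentile of all genes tested. The members have a median of 0.31 and the upstream kinases and transcription factors 0.00, and the red points are Egr1, Pim1, Cdkn1a, Ccl3, Cxcl10 and Mmp13.

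The genes whose pattern over the 4 arrays was most like the mean of the 9 were Oas2, Drd4, Smpdl3b, Snx20 and Pik3r5, with Pearson r from 0.9994 to 0.9998. They were the closest of 4653 genes off the sex chromosomes and outside the lists with a range at least that of the mean profile, which was 0.39. This is a description over 4 arrays, and no p is given. Oas2, an interferon-induced enzyme that senses double-stranded RNA, had 76.8 and 76.3 in floxed lungs, against 50.9 and 42.3 in wild type lungs. Since the mean profile is itself higher in floxed lungs, a difference between the groups is part of how these 5 were chosen, and none is tested.

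How far the processing moved the members was followed for the 4 with an unadjusted p under 0.05. Under 13 alternatives Egr1 passed in 5, Dusp1 in 2, Fos in 1 and Zfp36 in 0, and the log2 fold change of each stayed above 0 in all 13. Egr1 ran from 0.69 to 0.83, Fos from 0.39 to 0.86, Dusp1 from 0.41 to 0.51 and Zfp36 from 0.37 to 0.65. With no filter on low genes the adjusted p of Egr1 was 0.122, while eBayes with a trend on intensity and a robust prior gave 0.00285.

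**Figure D5:**
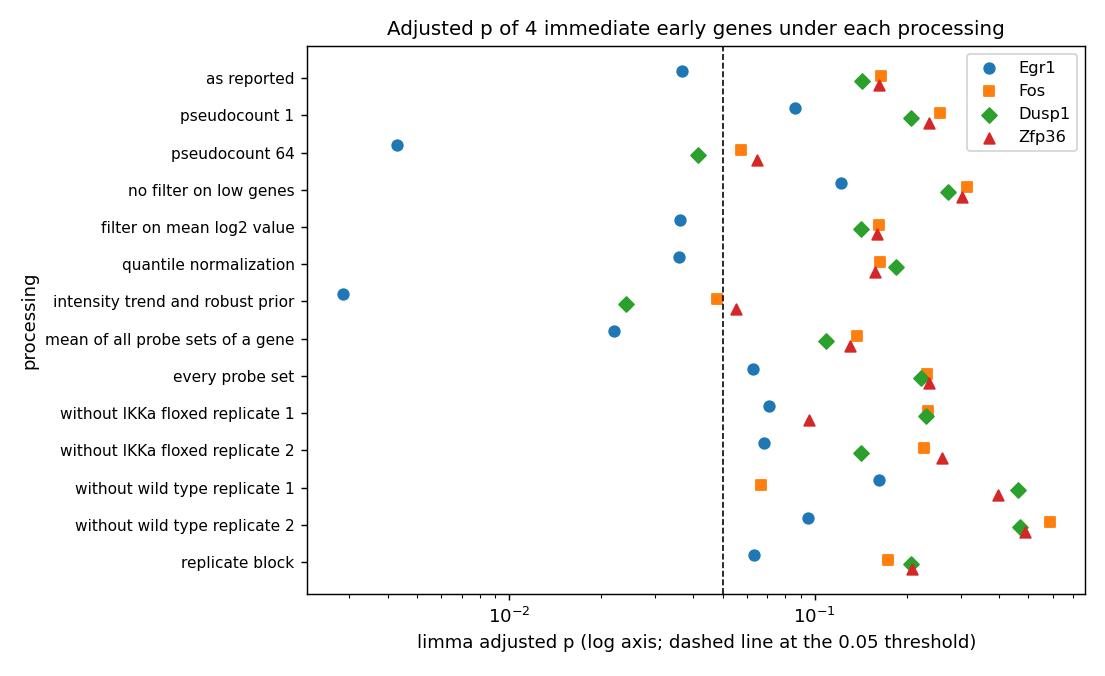
Limma adjusted p, on a log axis, of Egr1, Fos, Dusp1 and Zfp36 as reported and under each of 13 alternatives, with a dashed line at the threshold of 0.05. Egr1 lies left of the line as reported and under 5 alternatives and right of it whenever an array is left out, while Zfp36 lies right of it throughout.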

How the data were processed

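The authors deposited linear intensities, 1 for each probe set on each array, and had scaled them: the mean without the lowest and highest 2% was 150.001 on every array. Affymetrix Expression Console is the tool listed in the submitters' processing notes, with no version, algorithm or genome build given there. Biotinylated cRNA was made from 150 ng of Trizol-extracted RNA, per the labels' protocols. No detection calls were used, and the number of arrays limits the precision.

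Of 45101 probe sets, 64 were array controls, 34945 others had 1 gene symbol, 932 several and 9160 none, and the last 2 kinds named no gene. Symbols were checked through Entrez numbers against RefSeq (34741 matched, 0 changed). A gene was read from its probe set with the highest mean. Array medians differed by at most 0.0646 on the log2 scale, so the deposited scaling was kept. Genes under the 30th percentile of mean intensity (21.0) were left out. The test was limma 3.58.1 in R 4.3.3 (lmFit, eBayes, two-sided, no covariates) on log2(intensity + 16), with 2 residual and 4.67 prior degrees of freedom. On that scale the fold changes of dim genes come out too small. On data simulated for this comparison (12735 genes, 20 runs, 200 changed genes), it recovered 5.95% of genes changed 1.5-fold and 70.1% of those changed 2-fold. Recovery depends on the share of changed genes, which was set there and is not known for these data.

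The members and gene lists were chosen with earlier results of these data known. In each list, genes past the threshold were named and, where fewer than 3 passed, also the 3 of highest mean intensity. Genes named outside this rule are marked. Deviations of same-numbered arrays from their group means correlated at 0.002, so the numbers were not taken as pairs. Alternatives were other pseudocounts, filters, normalization, variance prior and probe set rules, a replicate block and leaving out each array.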

Additional observations from a re-analysis of the deposited data

How the results depend on the processing

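Of 12735 genes, 225 passed as reported, 128 higher and 97 lower. The count was 110 with a pseudocount of 1, 362 with 64, 69 without the filter on low intensity and 388 under a trended, robust prior, and 145 to 251 with an array left out. The number of immediate early genes that passed, 1 as reported, was 0 with a pseudocount of 1, with no filter or with every probe set fitted, 2 with a pseudocount of 64 and 3 under the trended, robust prior. It was 0 whichever array was left out (range 0 to 0), and 0 with the replicate block, where Egr1 stood at 0.76 (adjusted p = 0.0633). The share of higher among all calls was 87 of 195 without floxed replicate 1. The members' median log2 fold change ran from 0.22 to 0.41. Junb turned to -0.06 without floxed replicate 1 and -0.14 without wild type replicate 2, and Atf3 to -0.16 and -0.06 without the same arrays, with no call in any of these (0.18 for Junb without wild type replicate 1). A filter on the mean log2 value, chosen after seeing the data, kept 1 member call. The cause of these changes was not tested. Where an array is left out, the lone array of its group is assumed to vary like the other group. A 1.5-fold change, about the size seen for Fos, was seldom called in the simulation with 2 arrays a group.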
